A study of Mus musculus with 4 samples.

Results

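Integrins are paired surface receptors, 1 alpha and 1 beta chain each, through which leukocytes hold on to other cells and to matrix; 34 genes for these chains and for molecules that work beside them were chosen by name, and 33 of them had a probe set annotated with their symbol alone. Itga10 had none and was not analysed here. The 33 genes carried 35 probe sets, among 22180 genes and 39720 tested probe sets of the series, and a gene with more than 1 was represented by its brighter probe set. Levels are log2 intensities, and a difference is the mean with retinoic acid minus the mean with the solvent DMSO.

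The cells were Ly6C-high monocytes sorted from the bone marrow of 3 mice, which had been pooled, and cultured with GM-CSF and interleukin 4 at 20 ng per ml each, so that both groups were in conditions that drive dendritic cell differentiation. One group received all-trans retinoic acid at 100 nM and the other DMSO, from the onset of culture. RNA was taken after 24 h, on day 1, and there were 2 arrays per group. Strain, age and sex of the mice were not given in the sources used here, nor whether the arrays of a group came from separate cultures. The p-values set each difference against the spread between these arrays, which limma moderates across probe sets, and that spread may be technical.

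Integrins switch between a bent, inactive form and an extended form that binds ligand. Inside the cell, talin (Tln1) and kindlin 3 (Fermt3) bind the beta tail and bring about this switch, and the tail is then linked to actin. Monocytes slow down on vessel walls through selectins, which bind PSGL-1 (Selplg), and arrest through beta2 integrins on ICAMs and through alpha4 integrins on VCAM-1. In tissue, other integrins hold them to collagen, laminin, fibronectin and vitronectin. The alpha4beta7 integrin guides leukocytes to the gut, and in lymphocytes retinoic acid is known to raise it.

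Retinoic acid was followed by higher levels of 2 members, Itga4 and Itgb5, and lower levels of 3, Itgal, Itga1 and Vcam1, by limma at an adjusted p under 0.05, a threshold adjusted over all 39720 probe sets. The other 28 did not pass. These counts are 6.06% and 9.09% of the 33 genes, where 1.28% of all genes were called higher and 1.79% lower. The members were chosen with earlier results of these data known, so the larger shares are a description only. The members had a median difference of 0.05, against 0.01 over all genes, and a median size of difference, sign left out, of 0.21 against 0.10. Among genes above the dim level in a group, the median sizes were 0.28 and 0.12. The dim level, 6.35, is the 95th percentile of the mean level of olfactory and vomeronasal receptor genes, taken here as a mostly silent reference. Of the 33 members, 26 lay above it in both groups and 7 below it in both, whereas 41.1% of all genes lay below it in both. The groups did not overlap in 13 members with retinoic acid above DMSO (39.4%; 25.0% of all genes) and in 12 with it below (36.4%; 23.0% of all genes). With 2 arrays per group a gene with no response separates often, so non-overlap alone is not counted as a change here.

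The 5 calls rest on all 4 arrays together. When DMSO replicate 1, DMSO replicate 2, retinoic acid replicate 1 or retinoic acid replicate 2 was left out, 0 members passed. The smallest adjusted p over the members was then 0.0741, 0.0734, 0.0589 and 0.0503 (limma), and 10, 10, 13 and 10 members had an unadjusted p under 0.05. All 5 kept their direction in each of these fits. The 5 calls also rest on leaving out probe sets with 1 constant value on all arrays. With these kept, limma called 0 members (smallest adjusted p = 0.0625) and 0 probe sets in all. An unadjusted limma p under 0.05 was found for 13 of the 33 members, beside 6260 of 41345 probe sets.

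**Figure D1:**
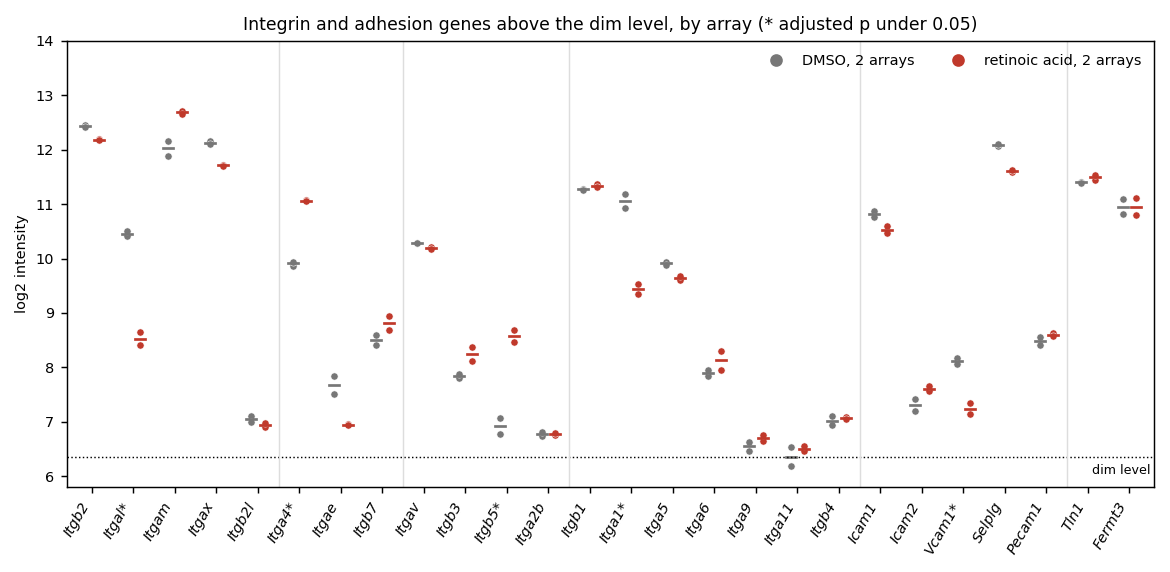
Log2 intensity (y axis) of the 26 members above the dim level in both groups (x axis), with a point for each array and a bar for the mean of 2 arrays; grey is DMSO, red is retinoic acid, the dotted line is the dim level of 6.35, and stars mark limma adjusted p under 0.05. Itgal, Itga1 and Vcam1 are lower and Itga4 and Itgb5 higher on both retinoic acid arrays, while Itgb1, Tln1 and Fermt3 lie close together in the groups.

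Array medians lay between 80.0 and 81.8 on the linear scale, and log2 values correlated across probe sets at 0.9931 to 0.9943 within a treatment and 0.9841 to 0.9879 between them. All 10 monocyte and macrophage markers of the list lay above the dim level in both groups, and 0 of them passed. Their median difference was 0.22. The groups did not overlap in 6 with retinoic acid above DMSO (25.0% of all genes) and in 3 with it below (23.0% of all genes). The largest difference was that of Mertk, at 7.76 and 8.37 with DMSO and 9.01 and 9.19 with retinoic acid (limma adjusted p = 0.130). Most granule genes of neutrophils and their precursors were bright too. Elane (neutrophil elastase) was at 11.65 and 11.72 with DMSO and 11.95 and 11.85 with retinoic acid. Camp was dimmer, at 7.64 and 8.12 and then at 7.91 and 7.72. Prtn3 was higher on both treated arrays without passing (0.73 ± 0.11, limma adjusted p = 0.0601), whereas Mpo and Ngp were lower by 0.14 and 0.13, also without passing. Ly6g, a marker of mature neutrophils, lay between 6.18 and 6.66. The summed linear intensity of the 10 neutrophil markers was 16473 to 17294 with DMSO and 16376 to 16910 with retinoic acid. Among them 1 was called higher, Retnlg, which lay under the dim level in both groups. The 1 called lower, Cxcr2, was bright, at 11.50 and 11.29 with DMSO and 10.25 and 10.24 with retinoic acid (limma adjusted p = 0.0167). For the 7 measured dendritic cell markers the sum was 12785 to 13279 with DMSO and 5185 to 5222 with retinoic acid. This linear sum is mostly the brightest of them, H2-Ab1, at 13.34 and 13.28 with DMSO and 11.78 and 11.77 with retinoic acid. It does not stand for the whole list. Of the 7, 3 were called lower, Zbtb46, Ciita and H2-Ab1. Flt3 did not pass, and Xcr1 and Siglech lay under the dim level in both groups. For another of the 7, Cd209a (DC-SIGN), the probe sets disagreed: the one with the higher mean differed by 0.05 ± 0.09, while the other went from 11.27 and 11.44 with DMSO to 7.26 and 7.22 with retinoic acid, 17.4-fold lower (limma adjusted p = 0.00172), and is not in the sum. None of the megakaryocyte and platelet (7 measured), T cell (5), natural killer cell (6), mast cell and basophil (8), erythroid (3) or endothelial (8) markers passed; 1 of 7 B cell and 1 of 6 eosinophil markers did, both as higher. Of these last 8 lists, the largest sum on any array was 839. In bulk samples, fewer cells of a type and less RNA per cell cannot be told apart, and the part of any of these markers in the integrin values was not tested.

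The leukocyte integrins share the beta2 chain, CD18, encoded by Itgb2. Itgal encodes CD11a, the alpha chain of LFA-1, which binds ICAMs and carries firm arrest. Its levels with DMSO were 10.41 and 10.50, and with retinoic acid 8.41 and 8.65. Both treated arrays thus lay well below both controls, a difference of -1.92 ± 0.11 (SE), 3.79-fold lower, with an adjusted p of 0.00647 (limma; 0.0503 to 0.0746 when any 1 array was left out). By the size of the fall, Itgal ranked 48 among 22180 genes.

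None of the other 5 genes of the beta2 group passed, and the group of 6 had a median difference of -0.24. Itgam encodes CD11b, the alpha chain of Mac-1 or complement receptor 3, and was at 12.16 and 11.89 with DMSO and at 12.71 and 12.66 with retinoic acid. Both treated arrays were higher, by 0.66 ± 0.12 (SE; 95% interval 0.35 to 0.96), and the gene did not pass (limma adjusted p = 0.0893; over the alternatives 0.0151 to 0.321, under 0.05 in 4 of them). Itgax encodes CD11c, the usual surface marker of dendritic cells. Its values were 12.16 and 12.10 with DMSO and 11.72 and 11.70 with retinoic acid. They were lower on both treated arrays by 0.42 on the log2 scale without passing (difference -0.42 ± 0.08, limma adjusted p = 0.0948). Itgax, too, passed in 4 of the alternatives. Itgam, Itgax and Itgad are direct neighbours among protein-coding genes on the RefSeq map (assembly GRCm38.p6). So the adjoining genes for CD11b and CD11c differed in opposite directions, neither past the threshold in this fit.

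Itgb2, the shared chain, was at 12.45 and 12.42 with DMSO and at 12.19 and 12.17 with retinoic acid. This is a difference of -0.26 ± 0.08, which did not pass (adjusted p = 0.248), although the groups did not overlap. Itgad, the CD11d chain of tissue macrophages, lay under the dim level on every array, so its values do not show whether it responded. Itgb2l, a gene related to Itgb2, lay between 6.91 and 7.11 and differed by -0.10 (interval -0.33 to 0.12).

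The integrins alpha4beta1 (VLA-4) and alpha4beta7 share the alpha4 chain, CD49d. Its gene, Itga4, was at 9.87 and 9.94 with DMSO and at 11.08 and 11.05 with retinoic acid. The replicates of each group lay close together and the groups far apart, a rise of 1.16 ± 0.08 (SE) or 2.23-fold, with a limma adjusted p of 0.00922 (0.0795 to 0.101 without any 1 array). The gene ranked 108 by rise among 22180 genes. Its beta partners did not pass. Itgb7 was at 8.60 and 8.42 with DMSO and 8.69 and 8.94 with retinoic acid, which is 0.30 ± 0.13 higher (interval -0.03 to 0.63, adjusted p = 0.411). Itgb1, the most widely shared beta chain, was at 11.27 and 11.26 and then at 11.36 and 11.31 (0.07 ± 0.08, interval -0.13 to 0.27, adjusted p = 0.765).

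Beta7 has a second partner, alphaE or CD103, which binds E-cadherin on epithelium and marks some intestinal dendritic cells. Itgae was at 7.84 and 7.52 with DMSO and at 6.96 and 6.95 with retinoic acid. The treated arrays were lower, against a spread of 0.23 (SD) between the controls, and the difference of -0.72 ± 0.13 did not pass (limma adjusted p = 0.0895). In 2 of the alternatives Itgae passed. The genes for the alpha partners of beta7 therefore differed in opposite directions, and only Itga4 passed in the main fit.

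The beta5 chain pairs with alphav to bind vitronectin and takes part in the uptake of dead cells by phagocytes. Itgb5 was at 6.78 and 7.07 with DMSO and at 8.46 and 8.69 with retinoic acid. Every treated value was above every control value by more than the spread in either group, a rise of 1.65 ± 0.14 (SE) or 3.13-fold (limma adjusted p = 0.0156; 0.0756 to 0.105 without any 1 array). It ranked 62 by rise among 22180 genes. With DMSO the gene lay not far above the dim level of 6.35.

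Itgav, which encodes the common alpha partner of beta3, beta5, beta6 and beta8, was at 10.28 and 10.29 with DMSO and at 10.21 and 10.18 with retinoic acid. The difference was -0.09 ± 0.08, with an interval of -0.29 to 0.11 (adjusted p = 0.695). Its dimmer probe set, under the dim level, differed by -0.01 ± 0.08. Itgb3, the beta chain of the vitronectin receptor of macrophages and osteoclasts, was at 7.81 and 7.87 and then at 8.12 and 8.38. It was higher on both treated arrays by 0.41 ± 0.11, without passing (adjusted p = 0.225). Itgb6 and Itgb8, whose products activate TGF-beta with alphav, were under the dim level in both groups. Itga2b, the platelet chain that pairs with beta3, was at 6.74 and 6.82 with DMSO and at 6.75 and 6.80 with retinoic acid.

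Of the 11 measured genes for beta1 and beta4 and the alpha chains of collagen, laminin and fibronectin receptors, Itga1 alone passed. It encodes CD49a, which forms a collagen receptor with beta1. Itga1 was at 11.18 and 10.92 with DMSO and at 9.53 and 9.35 with retinoic acid. The treated values lay below the controls by several times the spread, with a difference of -1.61 ± 0.13 (SE), or 3.06-fold lower (limma adjusted p = 0.0126; 0.0734 to 0.0947 without any 1 array). It ranked 77 by fall. Itga2, its direct neighbour on the RefSeq map and the alpha chain of the other common collagen receptor, lay under the dim level in both groups.

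The fibronectin receptor chain Itga5 was at 9.94 and 9.88 with DMSO and at 9.61 and 9.67 with retinoic acid, and did not pass (-0.27 ± 0.08, adjusted p = 0.251). Itga6, a laminin receptor chain, was at 7.85 and 7.95 and then at 7.96 and 8.31, and the interval of its difference held 0 (-0.13 to 0.60). Itga9, Itga11 and Itgb4 differed by 0.15, 0.15 and 0.05, and their intervals held 0. Single arrays of Itga9 (6.47 to 6.76) and Itga11 (6.18 to 6.55) lay near the dim level of 6.35, so these values say little about a response. Itga3, Itga7 and Itga8 were under the dim level. Over the 7 members under the dim level in both groups, single arrays ran from 4.98 to 6.31 and differences from -0.21 to 0.14, which says little about these genes.

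**Figure D2:**
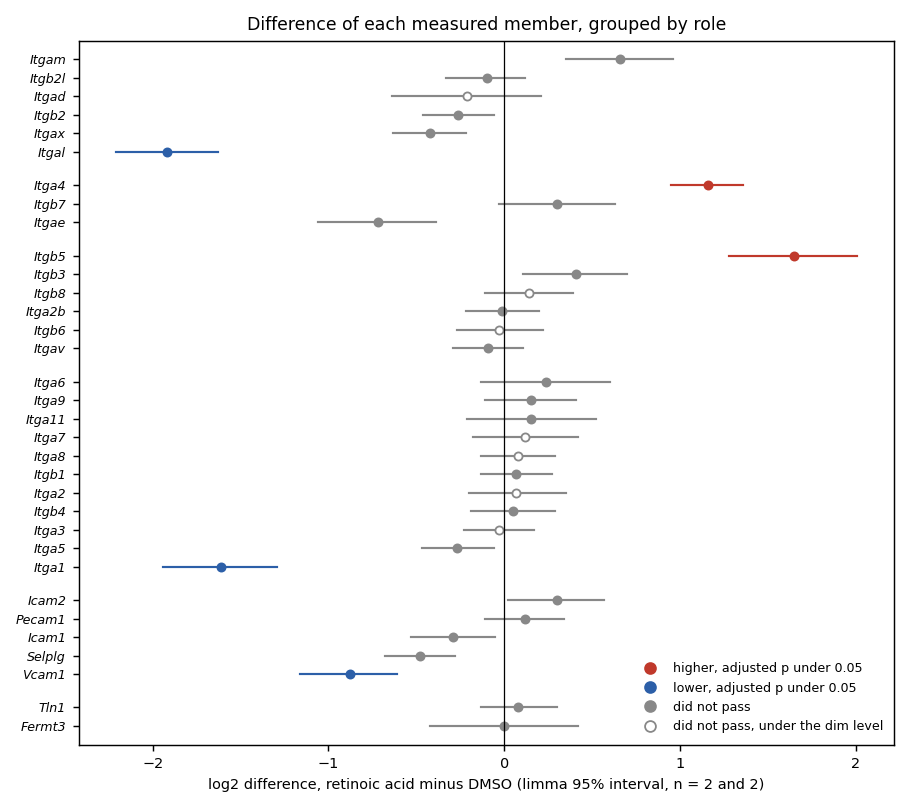
Log2 difference of each of the 33 measured members (x axis, retinoic acid minus DMSO; lines are limma's 95% intervals from 2 and 2 arrays), grouped from top to bottom as beta2 family, alpha4 and beta7, alphav group, beta1 and matrix receptors, surface counter-receptors and intracellular activators. Red and blue points passed as higher and lower, grey ones did not pass and open ones lay under the dim level; Itgal at -1.92 and Itgb5 at 1.65 mark the ends of the range.

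Chains that share a partner were then compared within each array, as the change in their log2 ratio with the DMSO mean set to 0. With this design the smallest p of a two-sided exact permutation test is 0.333, so these ratios describe the arrays. Relative to Itgb2, Itgal was at -1.79 and -1.53 on the retinoic acid arrays, against -0.06 and 0.06 on the DMSO arrays. Itgam relative to Itgb2 was at 0.94 and 0.90 against 0.12 and -0.12. The ratio of Itgal to Itgam was lower on both treated arrays, at -2.73 and -2.43, against -0.18 and 0.18, a change of -2.58 or 5.98-fold (exact permutation p = 0.333). Itgax relative to Itgb2 was at -0.16 and -0.17 against 0.01 and -0.01.

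In the alpha4 group, Itga4 relative to Itgb7 was at 1.00 and 0.71 with retinoic acid, against -0.13 and 0.13, and relative to Itgb1 at 1.08 and 1.09, against -0.04 and 0.04. Itgae relative to Itgb7 went the other way, to -0.90 and -1.16, against 0.07 and -0.07. Itgav relative to Itgb5 was at -1.60 and -1.87, against 0.14 and -0.14, and relative to Itgb3 at -0.35 and -0.64, against 0.02 and -0.02. Of the 11 ratios examined, 3 lay higher on both treated arrays, 7 lower and 1 overlapped between groups. The overlapping ratio was that of Itgad to Itgb2, and 1 of the 7 lower ones was that of Itgav to Itgb8; Itgad and Itgb8 lay under the dim level, so neither ratio says how these genes responded. For single genes, 25.0% of all lay higher on both treated arrays and 23.0% lower, so separation of the ratios is a description only. Each exact p of the 10 that separated was 0.333, the smallest the design allows.

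**Figure D3:**
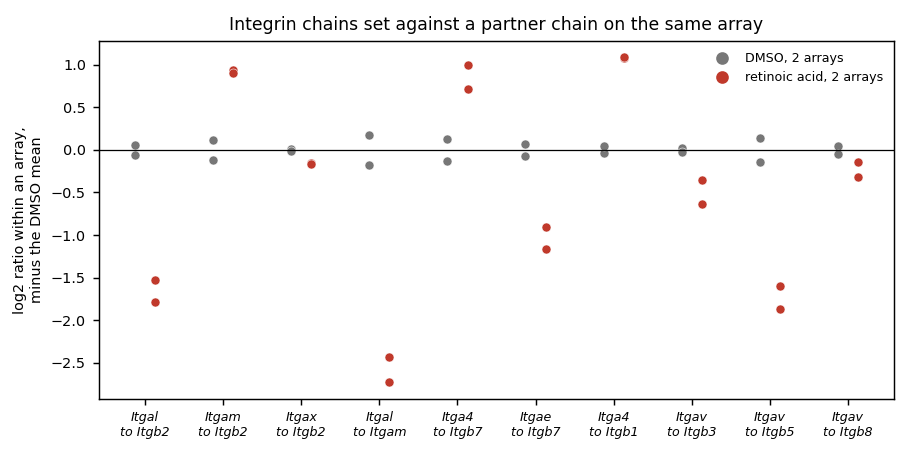
Log2 ratio of an integrin chain to another chain on the same array (y axis, minus the mean of the 2 DMSO arrays, which by this centring lie evenly about 0) for 10 pairs (x axis); grey points are DMSO arrays and red points retinoic acid arrays. Itgal against Itgam shows the widest separation of these pairs, with -2.73 and -2.43 on the retinoic acid arrays.

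Among the counter-receptors, Vcam1 encodes VCAM-1, the ligand of alpha4beta1, which is found on vessel walls and on some macrophages. It was at 8.18 and 8.07 with DMSO and at 7.14 and 7.34 with retinoic acid. Both treated arrays were lower, by a difference of -0.88 ± 0.11 (SE), 1.85-fold (limma adjusted p = 0.0327; 0.107 to 0.194 without any 1 array). The endothelial marker list showed 0 called genes of 8, with 7 of the 8 under the dim level in both groups. Which cells gave the Vcam1 signal was not tested. Vcam1 fell while Itga4, the gene for the alpha chain of its receptor, rose on the same arrays.

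Selplg, the gene of the selectin ligand PSGL-1, was lower in both of its probe sets. The brighter one was at 12.07 and 12.10 with DMSO and at 11.59 and 11.63 with retinoic acid, and did not pass (-0.48 ± 0.08, limma adjusted p = 0.0691). This brighter probe set passed in 5 of the alternatives. The dimmer one, at 9.60 and 9.67 and then at 8.95 and 9.07, passed narrowly (-0.63 ± 0.09, limma adjusted p = 0.0486; 0.160 to 0.299 without any 1 array). It is not counted among the 3 genes called lower, since the brighter probe set stands for the gene. Icam1, the inducible ligand of LFA-1 and Mac-1, was at 10.87 and 10.77 with DMSO and at 10.60 and 10.47 with retinoic acid (-0.29 ± 0.09, adjusted p = 0.285). Icam2, another ligand of LFA-1, was at 7.20 and 7.42 and then at 7.57 and 7.65 (0.30 ± 0.11, adjusted p = 0.334). Pecam1, which serves passage between endothelial cells, was at 8.42 and 8.55 and then at 8.63 and 8.58 (0.12 ± 0.09, adjusted p = 0.651). None of these 3 passed, and the values do not show that they were unaffected.

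The intracellular activators were bright in both groups. Tln1 was at 11.41 and 11.39 with DMSO and at 11.44 and 11.54 with retinoic acid (0.08 ± 0.08, interval -0.13 to 0.30). Fermt3, which blood cells need for integrin activation, was at 11.10 and 10.81 and then at 10.79 and 11.12, so that the groups overlapped fully (0.00 ± 0.16, interval -0.42 to 0.42).

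Promoter sequences from RefSeq (build GRCm38.p6) were matched by symbol for 22 of the 34 genes and for 3 of the 5 called, Itga4, Itgb5 and Itga1. They are shown because these are the called members whose start sites could be read, the 250 bases before the start, 5′ to 3′ on the strand of the gene. Capitals mark GGGCGG, the GC box, and TGTGGT, the core bound by RUNX factors, on either strand. Itga4 lies at chr2:79255176-79255425 on the plus strand, Itgb5 at chr16:33829415-33829664 on the plus strand and Itga1 at chr13:115101965-115102214 on the minus strand.
Itga4: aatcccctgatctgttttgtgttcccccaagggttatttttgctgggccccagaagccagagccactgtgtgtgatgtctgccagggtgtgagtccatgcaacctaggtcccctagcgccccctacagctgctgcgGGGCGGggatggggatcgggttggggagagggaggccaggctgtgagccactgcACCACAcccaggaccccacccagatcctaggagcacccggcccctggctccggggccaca
Itgb5: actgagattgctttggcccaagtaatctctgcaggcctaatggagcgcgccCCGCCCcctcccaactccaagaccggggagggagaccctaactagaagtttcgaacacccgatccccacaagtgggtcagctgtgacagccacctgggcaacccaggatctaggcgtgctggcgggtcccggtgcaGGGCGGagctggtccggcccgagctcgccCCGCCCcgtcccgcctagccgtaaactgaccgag
Itga1: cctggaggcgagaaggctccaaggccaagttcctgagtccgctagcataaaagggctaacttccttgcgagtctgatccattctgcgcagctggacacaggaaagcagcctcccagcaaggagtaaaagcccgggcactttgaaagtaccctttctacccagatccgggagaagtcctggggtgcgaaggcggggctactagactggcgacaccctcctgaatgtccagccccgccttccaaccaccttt

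The window of Itga4 had a GC box at -114 and a RUNX core at -60, positions of the first base counted from the start, and that of Itgb5 had 3 GC boxes, at -199, -63 and -34. The GC content was 64% for Itga4, 65.2% for Itgb5 and 57.6% for Itga1, against a median of 52.4% over all 32851 windows of this length. Searched on both strands, GGGCGG was in 32.7% of all windows and TGTGGT in 14% of them. The core bound by PU.1, GAGGAA (23.3% of windows), the nuclear receptor motifs AGGTCA (14%) and AGTTCA (11.8%) and the TATA box TATAAA (12.4%) were in none of the 3. Of the 24 windows of members, 10 held GAGGAA, among them that of Itgam. No overlap between motifs occurred in the printed sequences. A match is a description of letters, and the absence of one says only that these letters are not in this window.

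Genes that carry signals from integrins to actin, or hold the talin and kindlin machinery, were listed as a group of 41, of which 35 were measured. Of these, 1 rose, 4 fell and 30 did not pass, where 1.28% of all genes were called higher and 1.79% lower, and the median difference was -0.02. Src, a tyrosine kinase that acts below integrins, rose from 7.72 and 7.82 to 9.57 and 9.67, a 3.60-fold increase (1.85 ± 0.09, SE; limma adjusted p = 0.00488). Zyx (zyxin, at the ends of actin bundles) fell from 11.74 and 11.80 to 10.60 and 10.61, 2.24-fold lower (adjusted p = 0.00867). Fgr, a myeloid kinase of the Src family, was 1.72-fold lower (adjusted p = 0.0471), the actin crosslinker gene Actn1 1.55-fold (adjusted p = 0.0414) and the adaptor gene Dok2 1.52-fold (adjusted p = 0.0498). In this group Src and Fgr, kinases of 1 family, thus moved in opposite directions. The integrin activator Rap1b, a small GTPase, differed by -0.02 ± 0.08, and Apbb1ip, which links Rap1 to talin, by 0.21 ± 0.09 (adjusted p = 0.429).

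Of 31 measured genes for other leukocyte adhesion molecules, 1 rose, 5 fell and 25 did not pass, beside the same 1.28% and 1.79% of all genes, with a median of -0.06. L1cam, an adhesion molecule of neurons that some leukocytes also use, had the largest fall of the group, from 9.55 and 9.44 to 6.73 and 7.25, 5.69-fold (-2.51 ± 0.19; limma adjusted p = 0.0119), with a wide gap between the treated arrays. Cd99l2, which serves passage through vessel walls, was 2.63-fold lower (adjusted p = 0.0119), and Alcam, the ligand of CD6, 1.99-fold (adjusted p = 0.0187). Pvr, the poliovirus receptor and ligand of CD226, was 1.80-fold lower (adjusted p = 0.0409). The tetraspanins CD9 and CD81, which associate with integrins in the membrane, went apart. Cd9 fell from 11.17 and 11.12 to 10.07 and 9.91 (2.23-fold, adjusted p = 0.0130; a dimmer probe set differed by -0.08 ± 0.12). Cd81 rose from 9.94 and 9.92 to 11.22 and 11.14 (2.38-fold, adjusted p = 0.00779). The hyaluronan receptor Cd44, at 10.51 and 10.56 and then at 10.05 and 9.97, did not pass (-0.53 ± 0.08, adjusted p = 0.0610).

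Of 32 measured genes for matrix and soluble integrin ligands, 16 lay under the dim level in both groups, 1 rose, 2 fell and 29 did not pass, again beside 1.28% and 1.79% of all genes, with a median of -0.02. Counts as small as 1 and 2 are not read as a result about this group. Fn1 (fibronectin, the ligand of alpha4beta1 and alpha5beta1) rose from 11.80 and 12.13 to 12.97 and 13.14, 2.14-fold (1.09 ± 0.14, limma adjusted p = 0.0400). Thbs1 (thrombospondin 1) fell from 8.96 on both DMSO arrays to 7.27 and 7.80, 2.68-fold (adjusted p = 0.0424). Adam15, a membrane protease with an integrin-binding domain, was 1.66-fold lower (adjusted p = 0.0482), while its dimmer probe set differed by -0.03 ± 0.13. Fn1 and Itga4 thus rose together and Vcam1, another ligand of the same integrin, fell.

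These 14 calls in the 3 groups kept their sign when any 1 array was left out. As with the members, they rest on all arrays: without retinoic acid replicate 2, L1cam passed (limma adjusted p = 0.0366), and no other of the 14 passed in any of the 4 fits, with adjusted p up to 0.288.

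**Figure D4:**
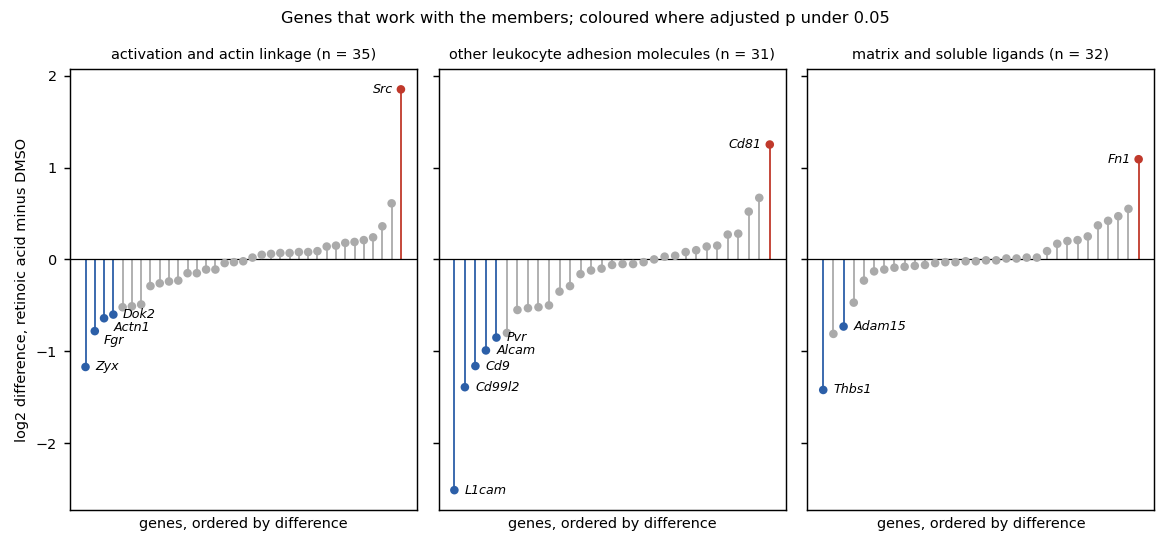
Log2 difference (y axis, retinoic acid minus DMSO, means of 2 arrays) of each measured gene in the groups for activation and actin linkage (35 genes), other adhesion molecules (31) and ligands (32), ordered by difference (x axis); red and blue mark limma adjusted p under 0.05. Src at 1.85 and L1cam at -2.51 lie farthest from 0, and most genes of each group lie near it.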

How the data were processed

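Whole-transcript arrays (1 colour) were run on 4 samples, 2 per treatment. The deposited values are linear intensities, 1 for each probe set on each array, made with Affymetrix Expression Console and RMA per the submitters' processing notes. Tool versions and the genome build behind the probe sets were not given in the sources used here. Intensities were taken to log2 here and not normalized again. Of 41345 probe sets, 1625 had 1 identical value on all arrays and no annotated gene; they were left out, since keeping them lowered the prior degrees of freedom in limma from 2.76 to 0.898.

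Symbols came from the platform annotation, and 2 probe sets that list a member among several symbols were not used. The treatments were compared with lmFit and eBayes of limma 3.58.1 in R 4.3.3 (two-sided, no covariates), with Benjamini-Hochberg adjustment over 39720 probe sets; the code was tested on simulated data. Values after ± are limma's standard errors (SE) of a difference. An SD has n = 2, and the number of arrays limits the precision. Members, gene lists and tests were chosen with earlier results of these data known. All members were accounted for; values by array were given for those past the threshold, those differing by at least 0.4 above the dim level and those in the ratios, and listed partner genes were named where they passed. A few others were named for their role, after their values were seen. Older symbols of 3 list genes were updated through RefSeq. List genes lacking a single-symbol probe set were not analysed here. Alternatives were other sets of tested probe sets, normalizations, pseudocounts and eBayes options, a replicate block and leaving out each array.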

Additional observations from a re-analysis of the deposited data

How the results depend on the processing

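With the constant probe sets kept, 0 probe sets passed in all (6260 at an unadjusted p under 0.05), and 0 members and 0 listed partner genes. With only probe sets of 1 symbol tested, 1636 probe sets passed, 6 members were lower (Itgax, Itgae and Selplg added), Itgam was added to the higher ones, and 7 partner genes were higher and 21 lower. With only probe sets above the dim level tested, 1235 probe sets passed, the same 6 members were lower and the same 3 higher. These 2 alternatives also adjust over fewer tests, and the cause of the added calls was not tested. With trend, and with trend and robust estimation, 1099 and 1091 probe sets passed, against 831 in the main fit. In each, 5 members were lower and 3 higher. Itgam passed in these 4 alternatives, with adjusted p of 0.0151, 0.0468, 0.0377 and 0.0409 (limma).

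With the replicate number as a block, 161 probe sets passed, with 1 member higher (Itgb5), 2 lower (Itgal and Itga1), and 1 partner gene higher and 1 lower; Itga4 (limma adjusted p = 0.0651) and Vcam1 (0.130) did not pass. The labels only number the replicates, and deviations of same-numbered arrays correlated at -0.25. With the crossed pairing, added after seeing the data, 457 probe sets passed. Of the members 1 was higher (Itga4) and 3 were lower (Itgal, Itga1 and Vcam1), so Itgb5 did not pass. Of the partner genes 2 were higher and 4 lower.

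Without any 1 array, 25 to 55 probe sets passed, 0 to 0 members in either direction, and 0 higher and 0 to 1 lower partner genes. Signs turned without an array, or under quantile normalization, only in these members, none of them called: Itgad (-0.44 to 0.01), Itga2b (-0.05 to 0.03; 0.01 by quantile), Itga2 (-0.02 to 0.16), Itga11 (-0.02 to 0.33), Itgb4 (-0.03 to 0.13), Itgb6 (-0.12 to 0.06) and Fermt3 (-0.16 to 0.16; 0.00 by quantile). The ratio of Itgad to Itgb2 ran from -0.20 to 0.28. Quantile normalization, centring on medians and a pseudocount of 16 left the 5 called members called. The pseudocount also added Selplg as lower (limma adjusted p = 0.0387).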
